A study of Mus musculus with 12 samples.

Results

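Acetylation of histone H3 at lysine 27 (H3K27ac) was described in wild-type mouse liver on day 2 after removal of 70% of the organ. The signal described is that of the wild-type H3K27ac libraries, 3 of 12 samples in the series, and of no other sample. The deposited table also has 3 other per-sample columns. Whether the samples behind them helped to set its regions, their widths or the scale of its values is unknown and was not tested. All mice of the study carried a Cox10-floxed allele and received, into the retroorbital sinus, an AAV8 virus with either GFP or Cre 4 weeks before the operation. The libraries used here are labelled wild-type, and the labels do not say which virus these animals had received. The other samples, Cox10-/- libraries and inputs, were not analysed here, so no genotype is compared. The 36387 regions described are all regions of the deposited table on 18 autosomes and the X chromosome, after 59 repeated rows were dropped. They carry 11240 gene names. Chromosome 16 was not analysed here.

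H3K27ac is placed on nucleosomes at promoters and enhancers that are in use, and is therefore read as a map of active regulatory DNA. After partial hepatectomy the remaining hepatocytes leave quiescence and divide, while they go on making plasma proteins and handling nitrogen, lipids and glucose for the body. Hepatocytes hold most of the tissue's chromatin, with macrophages, endothelial, stellate, biliary and blood cells making up the rest. In whole tissue, fewer cells of a type and less of the mark per cell cannot be told apart.

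Levels are normalised reads, whole read counts divided by 1 size factor per library, and are given per region or per kb of region. The 3 libraries had size factors of 0.752, 0.730 and 0.782 and held 4138459, 3897454 and 4187377 reads in regions. Their median region held 102, 99.98 and 101 normalised reads. The coefficient of variation between libraries had a median of 9.80% over all regions. The counting error expected of 1 library had a median of 11.5%. An SD taken over 3 libraries falls more often below than above the true one, so these values are not like for like. The coefficient between libraries was 28.9% in regions under 20 normalised reads and 4.19% in regions of 500 and over. The labels number the replicates without saying that each came from its own animal, so the spread may be technical.

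The sequences of the microRNAs and promoters that carried the widest and strongest regions are shown first. MicroRNAs are short RNAs that repress messengers by pairing through the seed, bases 2 to 8 of the mature strand, which is in capitals below. The widest region of the table carried the name of Mir21a, and its hairpin lies inside that region. Mirlet7c-2 carried more acetylated regions than other microRNA genes of the table, and the region named after Mirlet7a-1 was the strongest distal intergenic one per kb. The mature let-7c and let-7a strands share their seed. Sequences are from RefSeq (GRCm38.p6).
mmu-miR-21a-5p: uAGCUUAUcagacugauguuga
mmu-let-7c-5p: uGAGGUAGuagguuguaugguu
mmu-let-7a-5p: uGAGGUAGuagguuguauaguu

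Promoters are shown as the 250 bases before the RefSeq start site (GRCm38.p6), read in the direction of the gene. Nfkbia, Klf15, Hnrnpu, Stat3 and Cic carried 5 of the 12 strongest named regions per kb, and Apoe carried the second widest region. The strongest regions of Nfkbia, Klf15, Hnrnpu and Stat3 began 63, 41, 81 and 84 bases downstream of the start site, so the letters shown lie before the acetylated stretch. Those of Cic and Apoe lay over the start site. Capitals mark matches on either strand to GGGCGG (the GC box), CCAAT (the site of NF-Y), CACGTG (the E box), TGTTTAC (the core of forkhead factors) or GTTAAT (part of the HNF1 site). A match is a description of the letters, and no match says only that they are not in this window.
Nfkbia: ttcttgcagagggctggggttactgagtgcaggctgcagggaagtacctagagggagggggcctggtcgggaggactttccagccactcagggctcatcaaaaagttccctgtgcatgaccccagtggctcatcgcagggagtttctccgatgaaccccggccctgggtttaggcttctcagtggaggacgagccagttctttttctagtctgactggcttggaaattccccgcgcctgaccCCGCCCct
Klf15: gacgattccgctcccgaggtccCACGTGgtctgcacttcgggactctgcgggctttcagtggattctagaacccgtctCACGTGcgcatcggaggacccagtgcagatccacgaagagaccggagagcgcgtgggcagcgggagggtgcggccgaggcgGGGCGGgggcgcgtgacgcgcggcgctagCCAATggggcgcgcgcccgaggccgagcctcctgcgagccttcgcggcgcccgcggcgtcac
Hnrnpu: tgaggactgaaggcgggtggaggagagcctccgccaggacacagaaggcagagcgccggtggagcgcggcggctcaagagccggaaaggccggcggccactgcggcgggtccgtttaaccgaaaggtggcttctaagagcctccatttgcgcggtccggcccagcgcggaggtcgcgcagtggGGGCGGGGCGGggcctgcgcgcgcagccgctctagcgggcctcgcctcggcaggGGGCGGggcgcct
Stat3: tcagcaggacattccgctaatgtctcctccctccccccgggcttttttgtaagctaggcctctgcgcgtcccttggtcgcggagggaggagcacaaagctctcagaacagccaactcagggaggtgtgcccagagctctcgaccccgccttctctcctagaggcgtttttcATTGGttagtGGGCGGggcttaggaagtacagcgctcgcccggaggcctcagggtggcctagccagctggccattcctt
Cic: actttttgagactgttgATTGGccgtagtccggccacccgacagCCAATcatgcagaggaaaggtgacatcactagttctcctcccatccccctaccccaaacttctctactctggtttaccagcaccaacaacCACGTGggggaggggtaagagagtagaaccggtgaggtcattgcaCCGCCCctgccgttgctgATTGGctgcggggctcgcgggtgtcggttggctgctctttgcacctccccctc
Apoe: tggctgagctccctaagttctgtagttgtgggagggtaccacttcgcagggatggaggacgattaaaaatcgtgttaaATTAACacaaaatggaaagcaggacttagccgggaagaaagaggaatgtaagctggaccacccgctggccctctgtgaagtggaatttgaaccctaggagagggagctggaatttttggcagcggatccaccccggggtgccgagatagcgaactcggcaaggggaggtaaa

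Regions differed far more in width than in level per kb. A region held a median of 101 normalised reads, with a 90th percentile 7.08 times the 10th (307 against 43.4). Per kb the median was 239, and the 90th percentile was only 2.07 times the 10th (326 against 157). Widths ran from 183 to 6355 bases with a median of 440. Across regions, width had a Spearman correlation of 0.904 with reads per region and 0.326 with reads per kb (36387 regions, which are not independent and share the libraries). The narrowest 10% of regions, of 183 to 222 bases, had a median level of 226 per kb and the widest 10%, of 1082 bases and over, 284. The top 10% of regions by reads held 32.8% of all normalised reads and the top 1% held 6.61%.

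Promoters carried the most signal. Of all regions, 15980 (43.9%) were annotated by the authors as promoters up to 1 kb from a start site, and they held 56.7% ± 0.243 of the normalised reads (SD, n = 3). Distal intergenic regions numbered 6445 (17.7%) with 14.4% ± 0.0485 of the signal, later introns 5076 (14%) with 10.0% ± 0.0649, and first introns 3877 (10.7%) with 7.88% ± 0.0595. Promoters from 1 to 2 kb and from 2 to 3 kb away added 2222 and 1649 regions. Exons held 671 regions, 3′ UTRs 377, 5′ UTRs 68 and the stretch within 300 bases past gene ends 22.

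Promoter regions were also higher per kb and wider than the rest. In libraries 1, 2 and 3 the median promoter region stood at 273, 262 and 263 normalised reads per kb, and the median of all other regions at 227, 223 and 223. The groups of library medians did not overlap. The difference was 0.25 ± 0.019 on the log2 scale (SD, n = 3), or 1.19-fold, with a two-sided p of 0.25 by exact sign-flip permutation, below which 3 libraries cannot go. By reads per region, a measure that includes width, the difference was 0.73. The median width was 526 bases at promoters and 388 elsewhere. Of promoter regions 18.2% reached the 90th percentile of all regions per kb, against 3.56% of the others. Promoters made up 92 of the 100 strongest regions per kb, 86 of the 100 with most reads and 75 of the 100 widest. At the other end, 388 of the 424 regions under 50 normalised reads per kb lay outside promoters.

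Outside promoters the classes had nearly the same level. The median first-intron region stood at 220 ± 2.53 normalised reads per kb and the median later-intron region at 220 ± 1.62 (SD, n = 3). Their difference was -0.00026 ± 0.0069 on the log2 scale (exact sign-flip p = 0.75, two-sided). Its sign changed between libraries and turned to 0.0031 without the second library. Distal intergenic regions stood at 229.6 ± 3.02 per kb, above later introns in 3 of 3 libraries by 0.062 ± 0.0099 on the log2 scale, 1.04-fold (exact sign-flip p = 0.25, two-sided), and by 0.15 in reads per region. The X chromosome held 354 regions, 0.366 per protein-coding gene, where the autosomes held 1.21 to 2.24. The median level per kb on X was 0.907 ± 0.0076 of that on autosomes (SD, n = 3).

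**Figure D1:**
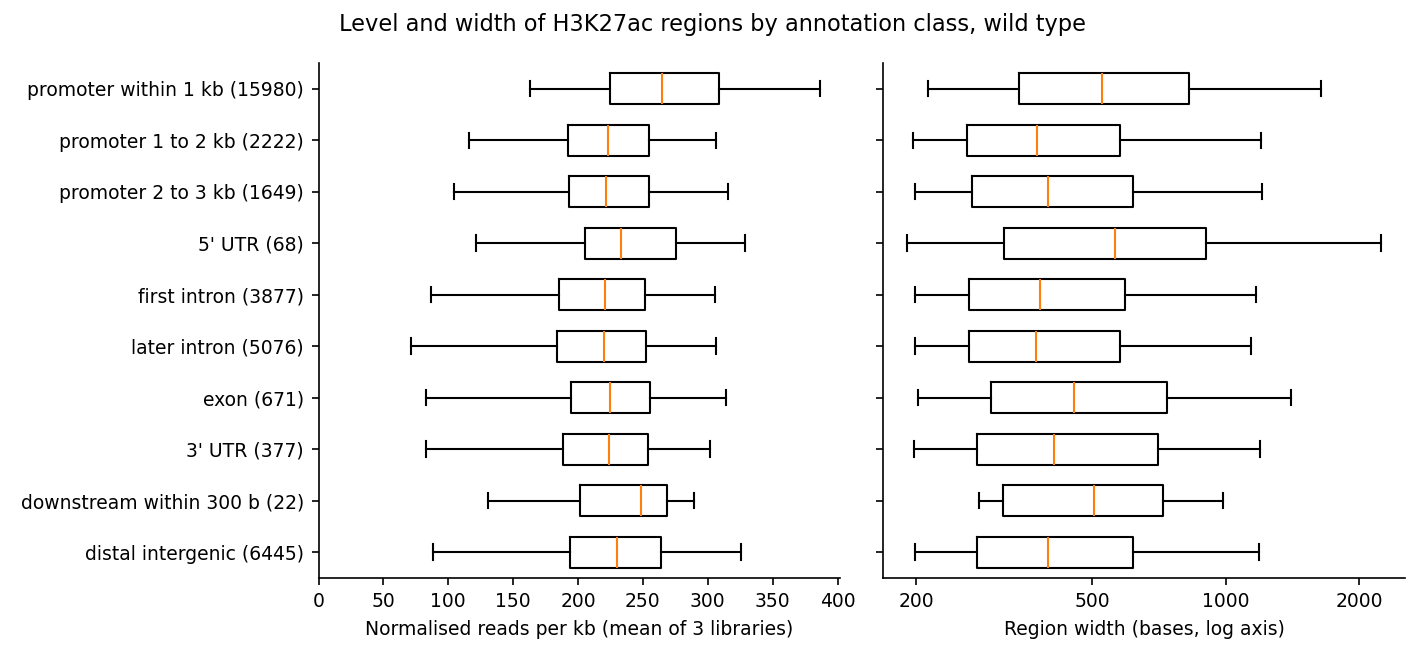
Level per kb (left, mean of 3 libraries) and width (right, log axis) of H3K27ac regions by annotation class, with the number of regions in brackets. Lines inside boxes are medians, boxes span the 25th to 75th percentile and whiskers the 5th to 95th. Promoters within 1 kb sit to the right on the level axis, with a median width of 526 bases, and the intron and intergenic classes share nearly the same medians.

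The mark sat beside start sites rather than on them. Of 20343 start sites of RefSeq protein-coding genes on the chromosomes used, 9167 (45.1%) had a region within 1 kb. Among these, a region covered the point 200 bases downstream in 85.6%, the point 100 bases upstream in 28.3% and the point 300 bases upstream in 48.5%. The start site itself was covered in 33.8%. Regions over the start site had a mean level of 300 ± 7.04 per kb (SD over 3 libraries). Those over the points 200 bases downstream and 300 bases upstream had 287 ± 6.91 and 284 ± 5.17. Each value is the level of a whole covering region, and points without a region do not enter. The values therefore cannot show whether the signal itself dips at the start site. The strongest region of a start site lay downstream in 48.4% of cases, with a median gap of 59 bases, over the start site in 28.2% and upstream in 23.5%. Where regions end depends on the peak caller, whose settings are not given in the sources used here.

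CpG-rich promoters (a GC content of at least 50% and an observed over expected CpG ratio of at least 0.6 in the 250 bases before and 50 after the start site) carried a region more often. They had one in 6716 of 9261 cases (72.5%), against 2451 of 11082 (22.1%) for other start sites. Once a region was present, levels were close, at 296 ± 6.60 per kb for CpG-rich and 278 ± 4.99 for other start sites (median of the strongest region, SD over 3 libraries). Very wide domains, at least 5 kb after regions within 1 kb of each other were joined, were found at 3.08% of the CpG-rich and 7.83% of the other start sites that had a region.

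**Figure D2:**
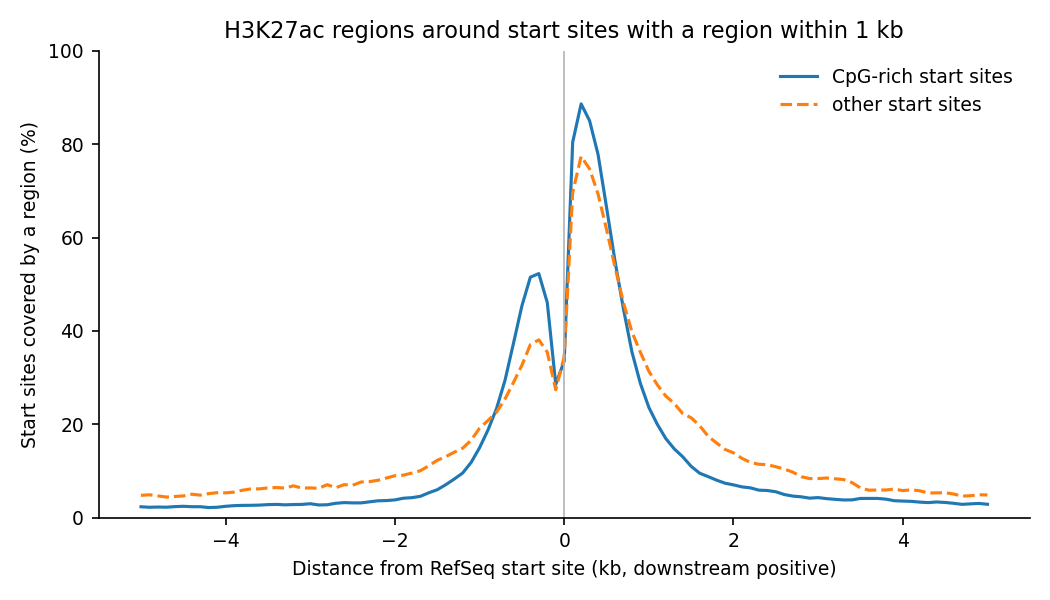
Percentage of start sites covered by a region (vertical axis) against distance from the RefSeq start site in kb (horizontal axis, downstream positive), for start sites with a region within 1 kb. Solid line, CpG-rich start sites; dashed line, other start sites. Both lines have a high peak 200 bases downstream (88.6% and 77.4%), a dip 100 bases upstream and a lower peak 300 bases upstream.

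Some promoter letters differed between narrow and wide domains. In the 250 bases before the start site, GGGCGG was present on either strand in 43.1% of all promoters, in 61.2% of those with a region and in 28.3% of those without. CCGGAAG, the site of ETS factors, was present in 9.03%, 15.4% and 3.80%. TATAAA, the TATA box, had the reverse order, with 11.6% of all promoters, 5.66% of those with a region and 16.4% of those without. Promoters with and without a region also differ in CpG content, and these shares were not split by it. In domains under 5 kb, GGGCGG was present in 71.6% of CpG-rich and 33.0% of other promoters. Among promoters with a region, GTTAAT was found in 9.02% of 399 domains of 5 kb or more and in 3.83% of narrower ones. CpG content differs between these sets. Among promoters that were not CpG-rich, GTTAAT was found in 14.6% of 192 wide and 8.46% of 2259 narrower domains. TGANTCA, the AP-1 site, had the same order, with 7.77% of wide and 3.93% of narrower domains over all promoters with a region. CAAAGTC, the core of HNF4, was found in 3.26% of wide and 3.40% of narrower domains over all promoters with a region. Its shares were 5.73% and 6.11% where promoters were not CpG-rich, and 0.966% and 2.46% where they were. TGTTTAC was level over all, with 2.26% and 2.22%, and its order changed with CpG content. It was found in 1.56% and 3.76% where promoters were not CpG-rich, and in 2.90% and 1.69% where they were. The shares of wide domains rest on few promoters. These shares were not tested.

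The strongest regions were then ranked per kb with 1 region per gene and without predicted and RIKEN gene names, as in the rankings of single regions and genes that follow. The first 12 held ranks between 1 and 15 among all regions, and 12 of 12 were promoters. The strongest lay at Nfkbia, which encodes the inhibitor that holds NF-kB in the cytoplasm (chr12:55492116-55492584, mm10, as given in the table, whose counting base is not stated). It held 791, 675 and 632 normalised reads per kb in libraries 1, 2 and 3 (mean 699 ± 82.4, SD, n = 3), and library 1 was the highest. Epc1, a subunit of the NuA4 histone acetyltransferase complex, held 688, 663 and 614 (655 ± 37.5). Nfyc, a subunit of the CCAAT-binding factor NF-Y, held 686, 627 and 605 (639 ± 42.0). In both, as at Nfkbia, library 1 was the highest and library 3 the lowest.

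Klf15, a Krüppel-like factor of hepatic amino acid and glucose metabolism, held 613, 619.5 and 602 per kb (612 ± 8.93, chr6:90462617-90463529). Its libraries were the closest of the 12. Cic, a transcriptional repressor downstream of receptor tyrosine kinases, held 570.1, 657 and 599.9 (609 ± 44.1), and here library 2 was the highest. Hnrnpu, an RNA-binding protein of the nuclear matrix, stood at 592 ± 32.7 and the long noncoding RNA gene Malat1 at 582 ± 26.8. Brd2, a bromodomain protein that reads acetylated histones, stood at 579 ± 19.8 over a region of 3090 bases (chr17:34119592-34122681), wide and strong at once.

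Pnrc1, a coactivator of nuclear receptors, followed at 578 ± 44.7. Stat3, the transcription factor of interleukin 6 signalling in the regenerating liver, held 592, 559 and 553 (568 ± 21.0, chr11:100938727-100939456). Ppp2r5a, a regulatory subunit of protein phosphatase 2A, held 536, 524 and 639 (566 ± 63.3). The order within the 12 is loose. The next gene, Stard7, stood at 566 per kb, level with Ppp2r5a. Several of these regions were narrow. Among regions of at least 500 bases 7 of the 12 kept their place, and the clock genes Per1 (562) and Nr1d1 (561), the splicing factor Srsf5 (538), the antioxidant regulator Nfe2l2 (538) and Actb (538) took the free places.

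**Figure D3:**
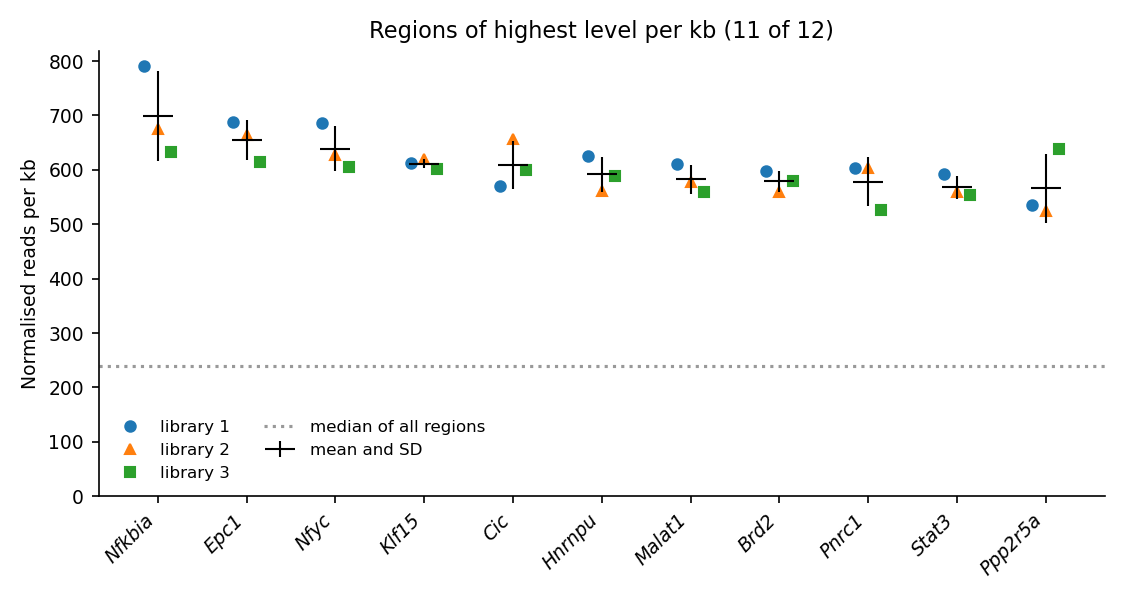
Normalised reads per kb in each of the 3 libraries (points) with mean and SD (bars) for 11 of the 12 named regions of highest level per kb, 1 per gene. The dotted line is the median of all regions, 239, and every point lies above 500.

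By reads per region the leaders were wide domains. The region at Rxra, the common partner of the liver's nuclear receptors, held 2380, 2339 and 2285 normalised reads (2335 ± 47.5, chr2:27677407-27682243). The region over Mir21a held 2349, 2269 and 2265 (2294 ± 47.5) and was the widest of all at 6355 bases (chr11:86580626-86586980). For both genes the 3 libraries lay within a few percent of each other. Next came Lrp1, an endocytic receptor for lipoprotein remnants (2038 ± 73.1, 6090 bases), and Apoe, a ligand of that receptor (1929 ± 84.5, 6277 bases). Man2a1, a Golgi mannosidase of N-glycan processing, held 1819 ± 51.3. The linker histone gene H1f0 (1795 ± 54.2), Brd2 (1788 ± 61.0), Anp32a (1704 ± 23.2) and Mtss1 (1640 ± 44.5) were also among the 10. Rusc2 had the fifth widest region, 5666 bases.

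In the other classes the strongest regions per kb belonged to genes of varied function. Among promoters 1 to 2 kb away the region of Zmym2 was the second strongest, at 473 ± 26.2 per kb. Between 2 and 3 kb away Prr14 stood at 506 ± 15.8 and the clock gene Per2 at 472 ± 50.6. In later introns both leaders belonged to Zbtb16, a zinc finger repressor, in intron 3 of 6 (509 ± 37.3 and 471 ± 15.5). First introns were led by Zfp395 (464 ± 45.3) and Nectin1 (446 ± 40.2), exons by Vwce (437 ± 53.2) and Gstz1, an enzyme of tyrosine breakdown (427 ± 37.6).

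A 5′ UTR region of Nr5a2, the nuclear receptor LRH-1 of bile acid and cholesterol metabolism, covered 3130 bases at 435 ± 6.53 per kb, second to Sigirr (454 ± 26.3). In 3′ UTRs Hmcn2 (458 ± 6.08) and Fam120b (393 ± 5.84) led, and past gene ends Tmem220 (334 ± 22.7) and Ctdsp1 (289.7 ± 26.6). Distal intergenic regions were led by those nearest to Mirlet7a-1 (527 ± 29.2, chr13:48546076-48546551) and Zfp869 (518 ± 65.6). In each class outside promoters the leader lay below the 12 strongest promoters.

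A gene had a median of 2 regions, and most of the signal was spread over many genes. Of 11240 genes, 4680 (41.6%) had 1 region, and 5998 had promoter regions only. At 1577 genes no region lay within 1 kb of a start site. The 138 genes (1.23%) with 20 or more regions held 10.1% of regions and 10.5% of the signal. Gene length went with the count only loosely: genes of 100 kb or longer had a median of 3 regions (1326 genes), genes under 10 kb a median of 1 (2924 genes), and Spearman's rho was 0.254 over 10780 genes. Regions away from promoters carry the nearest gene's name, which need not be the gene they act on.

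Mtss1, which encodes a membrane-bending scaffold protein, had the most regions and the most signal. Its 65 regions, 2 at promoters and 63 in introns, summed to 15353, 15128 and 15286 normalised reads (15256 ± 115) over 107355 bases. Rreb1, a Ras-responsive zinc finger factor, had 55 regions (9186 ± 45.9), Zmiz1, a coactivator of steroid receptors, 52 (7287 ± 69.2) and Arid5b, a chromatin regulator of lipid metabolism, 51 (6521 ± 90.9). Zbtb16 had 50 regions with 12630, 11825 and 12038 reads (12164 ± 417), the second highest sum. Its library 1 was the highest, and the largest relative spread of the 10 highest sums was here.

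Tns1, a focal adhesion protein, had 49 regions (8721 ± 132), and Shb, an adaptor of growth factor receptors, 46 (8104 ± 239.7). Rora and Rxra had 44 each, with 4672 ± 79.2 and 9229 ± 94.7 reads. Tomm20, a receptor of the mitochondrial import pore, had 40 regions, but 39 of them were distal intergenic and only 1 lay at its promoter. By summed signal Adk, the kinase that clears adenosine (29 regions, 8012 ± 155), and Man2a1 (29 regions, 7220 ± 123) joined the 10. The sums rest on regions outside promoters. Summed over promoter regions alone, 2 of the 10 genes stayed, and Slc29a1, a nucleoside transporter, led with 3682 reads before Rxra with 3528, Klf15 with 3203 and Fkbp5 with 3170.

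Neighbouring regions were close together. The median gap was 1323 bases, and 48.6% of gaps were 1 kb or less. Joined across gaps of 1 kb, the regions formed 18726 domains with a median width of 982 bases. The widest promoter domain was that of Slc39a14, a zinc and iron importer of hepatocytes induced in the acute phase. It joined 29 regions over 25736 bases (chr14:70329712-70355447) and held 4760, 4751 and 4674 normalised reads (4728 ± 47.2). Slc25a13, the mitochondrial aspartate-glutamate carrier that feeds the urea cycle, followed with 20430 bases (4651 ± 106). Rxra had 20420 bases (5052 ± 84.1) and Mat1a, the liver methionine adenosyltransferase, 18975 (3776 ± 173).

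The next widest promoter domains belonged to genes of varied function. Col18a1, which encodes a basement membrane collagen, had a domain of 16672 bases, Etnk2 16345, Slc29a1 16321 and Oaf 15887. Pck1, the cytosolic enzyme that commits oxaloacetate to gluconeogenesis, had 15392 bases, Sdc4 15332 and Ppara, the receptor that drives fatty acid oxidation, 14958. A domain of 15186 bases included Hamp, which encodes the iron hormone hepcidin, and Usf2. Counted in joined domains, 5 of the 10 genes with most regions stayed. Rreb1 then led with 24 domains, before Rora with 18, and Mtss1 and Pde4d with 17 each.

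Clusters of regions outside promoters were listed by the usual enhancer ranking, in which regions within 12500 bases are joined and ranked by summed reads. The 6843 domains formed a curve with 317 domains (4.63%) past the point where its scaled slope reaches 1. These held 29.7% of the signal outside promoters in 20.4% of the regions. They spanned a median of 24624 bases with 12 regions, the others 1140 bases with 2. The point is a convention, and with promoters kept in the joining 638 domains passed it.

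The highest domain lay in Mtss1, with 63 regions over 102899 bases (chr15:58975154-59078052) and 13626, 13427 and 13635 reads (13563 ± 117). Zbtb16 was second (8807 ± 304, chr9:48706926-48760749), Tns1 the third (7729 ± 139) and Zmiz1 the fourth (7661 ± 83.7). The fifth, chr2:167798923-167867438, overlapped no protein-coding gene and held 7568 ± 65.4 reads between Cebpb, 108491 bases away, and Ptpn1, 63312 bases away. Cebpb encodes the liver factor C/EBP beta, and no region of the table used carried its name. Adk was the sixth (7507 ± 178).

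The seventh domain, chr2:27552870-27601287, lay between Wdr5 and Rxra, 75158 bases from the latter (6825 ± 185). The eighth, chr6:31096202-31150594, lay between Klf14 and Mkln1 (6074 ± 78.7), and Shb (5277 ± 96.9) and Gna12 (5228 ± 40.6) closed the first 10. All 10 were among the first 15 in every library. Domain 11 carried the names of Cyb5a and Fbxo15 (5000.1 ± 109.6). Domain 12 spanned the apolipoprotein cluster of Apoa1, Apoc3 and Apoa4 with part of Sik3 (4952 ± 64.8), domain 13 lay in Hnf4a, the hepatocyte identity factor (4779 ± 133), and domains 14 to 17 carried the names of Eif1a, Bcl2l1, Oaf and Mirlet7c-2, with 4343 to 4502 reads. In domain 18, 18 regions beside Alb summed to 4311 ± 160 (chr5:90413300-90451382).

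**Figure D4:**
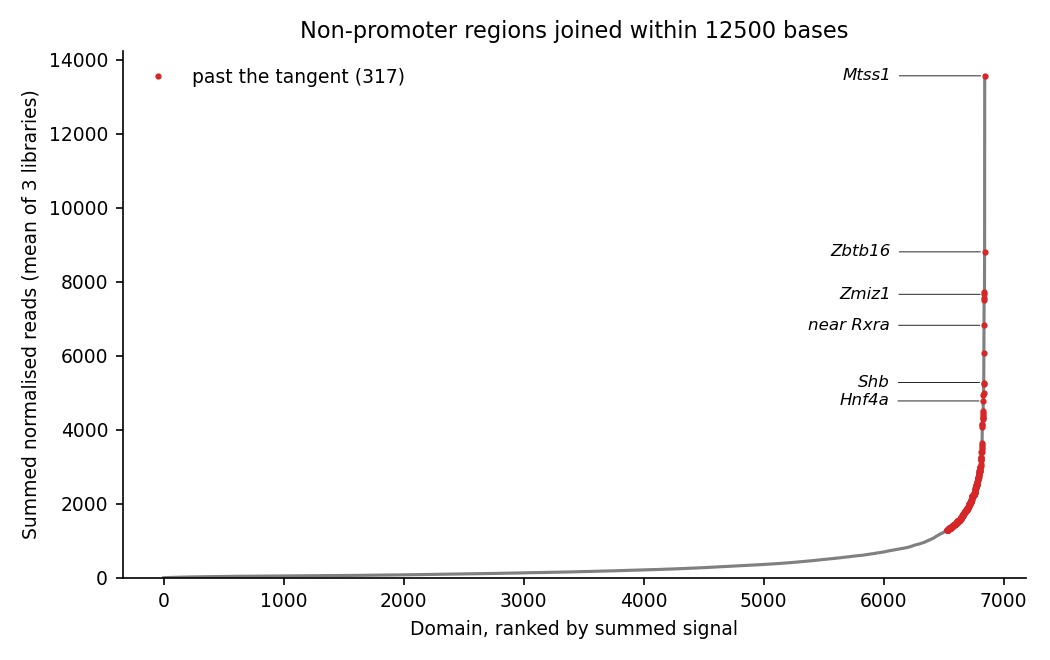
Summed normalised reads (vertical axis, mean of 3 libraries) of the 6843 domains of non-promoter regions joined within 12500 bases, against their rank. Red points are the 317 domains past the tangent, and names mark some of the highest. The curve is flat over most ranks and ends at 13563 in Mtss1.

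MicroRNA genes with a region differed widely in summed reads, and those named here were chosen after their values were seen. The 24 regions of Mirlet7c-2, whose mature strand is printed above, summed to 4908, 4632 and 4735 normalised reads (4758 ± 139), and its hairpin lay inside a region. Mir122, the most abundant microRNA of hepatocytes, had 5 regions with 1471 ± 81.4 reads. The hairpins of Mir21a, Mir193a and Mir194-2 also lay inside regions, with 2294 ± 47.5, 1097 ± 46.4 and 692 ± 22.1 reads. The 5 regions nearest to Mirlet7a-1 (946 ± 13.8) began 6691 bases from its hairpin. Others had low sums in the regions that carry their names, such as Mir23a with 103 reads, Mirlet7b with 43.8 and Mir29a with 11.4. The sums go by name and not by position, so regions near these genes may be counted under another gene.

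Genes were then grouped in 26 lists, and each gene was represented by its strongest promoter region per kb. Members were matched by the gene name that a region carries, not by position. A member said to have no region, or none at its promoter, may therefore have one under another gene's name. The 9663 genes with a promoter region had a median of 285 ± 7.14 per kb, a joined promoter domain of 1202 bases and 2 regions. For 20952 RefSeq protein-coding genes the share with a region was 46.3%. Lists share genes, such as Alb and Ass1, and were not tested. The direction against all genes depends on the measure. A maximum and a sum both tend to rise with the number of regions they are taken over. How far this raised lists whose genes have many regions was not tested. By the strongest promoter region 15 of 22 lists stood above all genes, and by the summed reads of a gene 20 did, all but the cell cycle and macrophage lists. By the mean level per kb over all regions of a gene, which takes in regions outside promoters, 6 did, against 249.4 per kb for all genes. Plasma proteins, the urea cycle, respiratory chain subunits, ribosomal proteins, housekeeping and clock genes stayed above. The lists of hepatocyte transcription factors (238), gluconeogenesis, amino acid breakdown (247), bile acids (241), lipid synthesis (244), fatty acid oxidation (236), immediate early genes (222), receptors (237) and periportal genes (245) went below.

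Genes for plasma proteins had regions at 29 of 29 members, with wide domains. The median promoter level was 319 ± 3.34 per kb, above that of all genes for 22 of 29, and the median joined domain was 5417 bases. A gene had a median of 6 regions. Rbp4, the retinol carrier, held 529, 464 and 474 per kb (489 ± 34.9), Vtn (vitronectin) 459 ± 39.8, Apob 431 ± 7.43 and Apoc3 425 ± 36.3. Fgb (fibrinogen, 247 ± 10.8) and F9 (coagulation factor IX, 225 ± 36.9) were the lowest. Alb, the albumin gene, had an ordinary promoter level of 298, 239 and 283 per kb (273 ± 30.7), near the 42.3rd percentile of promoter genes. Its signal came from number, 19 regions with 4873 ± 195 reads in sum, more than any other listed plasma protein gene. Serpina1a, Serpina1b and Serpina1c are near-identical copies, so how reads were divided among them is uncertain.

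Transcription factors of hepatocytes had the most regions of the 26 lists. A region was found for 26 of 27 members, with a median of 9 regions, and 13 had 10 or more, where 6.01% of all genes do. The median promoter stood at 338 ± 22.4 per kb, and 20 of 25 promoters lay above that of all genes, a direction that the mean over all regions turned. Xbp1, the secretory stress factor, held 504 ± 18.5 and Rxra 483 ± 9.82, followed by Creb3l3 (402 ± 17.9) and Nfib (386 ± 28.5). Hnf4a held 385, 386 and 387 per kb (386 ± 1.10) with 25 regions, and Cebpa had 20 regions and Ppara 30. Nr0b2 (226 ± 13) and Atf5 (204 ± 56.2) were the lowest. Onecut1 had regions away from its promoter only.

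Lists of nitrogen and fuel metabolism also had wide domains. All 10 urea cycle genes had a promoter region, 9 of them above the median of all genes (328 ± 12.9), with domains of 4313 bases. Ass1 (474 ± 13.3), Glud1 (396 ± 12.9), Asl (387 ± 7.56) and Nags (355 ± 16.5) led, and the X-linked Otc was the lowest at 231 ± 24.3. Amino acid breakdown stood at 312 ± 8.48, led by Ahcy (524 ± 26.2), Sardh (466 ± 33.2), Dmgdh (407 ± 30.2) and Cbs (403 ± 30.7), with Hal (223 ± 13) and Sds (218 ± 41.3) at the bottom. Hpd and Gnmt had no region in the table used.

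Gluconeogenesis and glycogen stood at 292 ± 17.6 with domains of 3830.5 bases. Ppp1r3b, which targets phosphatase to glycogen, held 425 ± 45.3, Ppp1r3c 361 ± 36.8, Fbp1 354 ± 11.9 and Pck1 309 ± 14.5. G6pc (263 ± 8.77) was among the lowest, and no region carried the name of Slc37a4. Fatty acid oxidation stood at 325 ± 2.81, with 12 of 15 promoters above the median of all genes. Acadl held 404 ± 20.1, Cpt1a, the carnitine gate to mitochondria, 377 ± 3.86 and Acadm 363 ± 24.6. Pdk4 (263 ± 34.6) and Hadhb (204 ± 28.5) were the lowest.

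Lipid synthesis stood at 296 ± 5.84, with Lpin1 (416 ± 17.2), Hmgcs1 (361 ± 46.5) and Srebf1 (359.9 ± 46.5) among the highest and Gpam (251 ± 25.6) and Sqle (226 ± 55.9) at the bottom. Scd1 had no promoter region. Bile acid genes stood at 294 ± 12.9. Slc27a5 (402 ± 11), the uptake carrier Slc10a1 (366 ± 2.90), Baat (341 ± 19.1) and Abcc2 (321 ± 9.28) led, and Cyp7b1 (205 ± 17.4) and Cyp8b1 (182 ± 31.3) were lowest. Cyp7a1, the rate-limiting enzyme of bile acid synthesis, and the carrier Slco1a1 had no region in the table used.

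Some liver functions had promoters below the median of all genes. Cytochromes P450 and conjugation enzymes stood at 268 ± 5.04, with 6 of 18 promoters above it, though their domains were wide (3072 bases). Por, the reductase that supplies P450 enzymes with electrons, held 461 ± 16 with 27 regions, Sult1a1 387 ± 12.9, Ephx1 306 ± 6.96 and Gstm1 299.5 ± 26.8. Cyp4a10 stood at 195 ± 19.8. Cyp2f2, Cyp4a14, Cyp2a5 and Cyp2b10 had regions away from promoters only, and Cyp2c29, Cyp2c37 and Ugt1a1 had none in the table used. Many of these genes have near-identical copies, between which reads may be divided.

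Acute phase proteins stood at 269 ± 8.29, with 10 of 21 above the median of all genes. Stat3, Itih4 (381 ± 5.35), Crp (350.3 ± 16.6) and Saa4 (331 ± 28.3) led. Saa2 (163 ± 29.9) and Cd14 (107 ± 0.958) were the lowest, and Lcn2 had no region in the table used. Zonation lists were read without a test of their difference. Pericentral genes, those of hepatocytes around the central vein, stood at 252 ± 10.2, with 2 of 11 above the median of all genes, and periportal genes at 299.5 ± 4.11, with 7 of 13. Pericentral genes were led by Znrf3 (297 ± 54.6), Cyp2e1 (297 ± 6.52), Rnf43 (269 ± 18.5) and Oat (262 ± 28.1). Lgr5 (193 ± 20.5) and Glul, the glutamine synthetase of the innermost layer (162 ± 20.2), were the lowest, and Slc1a2, Rhbg, Nkd1, Sp5 and Notum had none in the table used. Periportal genes were led by Ass1, Uox (375 ± 49.8), Arg1 (328 ± 18) and Cps1 (324 ± 4.75), and Sox9 was lowest at 147 ± 19.3.

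Genes of the regenerative response were read in separate lists. Immediate early genes stood at 318 ± 7.09 with domains of 3770 bases. Jund held 463 ± 21.1, Zfp36, which destabilises inflammatory messengers, 433 ± 8.14, Junb 423 ± 22.6 and Dusp1 386 ± 45.8. Ier3 (203 ± 20.6) and Klf4 (125 ± 30.0) were lowest, Fosb and Nr4a1 lacked a promoter region, and Fosl1, Jun and Gadd45b had none in the table used. Receptors of growth factors and cytokines stood at 313 ± 16.6. Egfr held 416, 439 and 458 per kb (438 ± 21.3), Insr 407 ± 7.71, Il6ra, the interleukin 6 receptor, 402 ± 33.0 with 17 regions, and Tnfrsf1a 377 ± 4.27. Spry2 (134 ± 29.6) and Erbb2 (90.9 ± 17.9) were the lowest, and Igf1r and Hgf had none in the table used.

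Cell cycle and replication genes, though measured on day 2, had narrow and rather weak promoters. A region was found for 26 of 36 members (72.2%), a larger share than the 46.3% of all protein-coding genes. The medians were 1 region, a promoter level of 266 ± 7.32 and a domain of 941 bases. Of 25 promoters, 7 lay above the median of all genes. Birc5 (survivin) held 353, 349 and 353 per kb (352 ± 2.46), Cdkn1a 318 ± 28.6, Cdk6 303 ± 49.6 and Ccnd1 296 ± 11.3. Ccnd1, encoding cyclin D1, stood out within the list for its 19 regions with 2939 ± 74.2 reads. Plk1 (212 ± 33.3) and Mki67 (190.1 ± 30.0) were the lowest. Ccnd2, Ccne1, Ccna2, E2f1, E2f8, Mcm3, Mcm6, Rrm2, Foxm1 and Bub1 had none in the table used.

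Genes used in all cells had promoter levels above the median of all genes and differed in width. Respiratory chain subunits stood at 340 ± 8.49 per kb, with 22 of 24 above the median of all genes, and their domains measured 1092.5 bases, narrower than the 1202 of all genes, with a median of 1 region. Sdhc (406 ± 47.2), Cox6c (402 ± 27.7), Atp5b (401 ± 29.8) and Uqcrc2 (394 ± 20.1) led, and Cox7b (274 ± 32.5) and Ndufa9 (271 ± 14.6) were lowest. Cytosolic ribosomal proteins stood at 303 ± 1.18 with domains of 1480.5 bases, from Rps6 (403 ± 21.4) and Rplp0 (355 ± 37.6) down to Rpl30 (192 ± 16.4). Housekeeping genes stood at 334 ± 11.8 with domains of 2663 bases, wider than those of all genes, from Actb (538 ± 41.0), Hnrnpa2b1 (496 ± 12.7), Eef1a1 (433 ± 6.33) and Hsp90ab1 (418 ± 20.5) down to the X-linked Pgk1 (189 ± 12.9) and Hprt (163 ± 13.8). Ribosomal genes have processed copies, so their reads may be divided.

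Clock genes stood at 286 ± 13.6 in the median but included some of the strongest promoters. Per1 held 557, 577 and 554 per kb (562 ± 12.3), Nr1d1, which encodes the repressor REV-ERB alpha, 599, 535 and 549.8 (561 ± 33.8), and Nr1d2, its paralogue, 503 ± 58.4. Tef, a PAR bZIP activator of the same output loop, stood at 430 ± 27.8. Bhlhe41 (214 ± 10.6) was the lowest, and Npas2 and Ciart had none in the table used. The hour of tissue collection is not given in the labels.

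Stress response genes ranged widely, with a median of 284 ± 7.04. Dnajb1 held 469 ± 53.9, Mt2 413 ± 13, Mdm2 407 ± 18.7 and Mt1 358 ± 13.7. Asns, the asparagine synthetase induced by ATF4, was the weakest listed promoter with 36.4, 37.5 and 35.0 per kb (36.3 ± 1.26), and Nupr1 stood at 71.8 ± 8.89. Atf4 and Hspa1a had none in the table used.

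Markers of other cell types checked the tissue. Regions were found for 5 of 19 macrophage and Kupffer cell markers, 9 of 20 endothelial, 4 of 18 stellate and mesenchymal, 5 of 13 biliary and 4 of 20 blood cell markers, and for 2 of 19 genes of neuron and muscle. The share over all protein-coding genes was 46.3%. Endothelial (45%) and biliary markers (38.5%) lay near it, and macrophage (26.3%), stellate (22.2%), blood cell (20%) and neuron and muscle genes (10.5%) lay below. For the hepatocyte lists the counts were 29 of 29 and 26 of 27. The defining markers Clec4f, Adgre1 and Csf1r of macrophages, Stab2, Kdr and Cdh5 of endothelium, Lrat, Pdgfrb and Col1a1 of stellate cells, and Krt19, Krt7 and Spp1 of ducts had none in the table used. Promoters that did carry a region were mostly low, such as Cd68 (145 ± 36.4), Stab1 (121 ± 24.8), Vim (178 ± 22.7) and Lck (164 ± 13.7). Exceptions included Cx3cr1 (349 ± 28.4, with 21 regions), Maf (317 ± 31.8) and Gata4 (306 ± 23.1), the last of which also stands in the hepatocyte factor list. Of 2 biliary promoters, 1 also lay above the median of all genes, at 304 per kb.

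**Figure D5:**
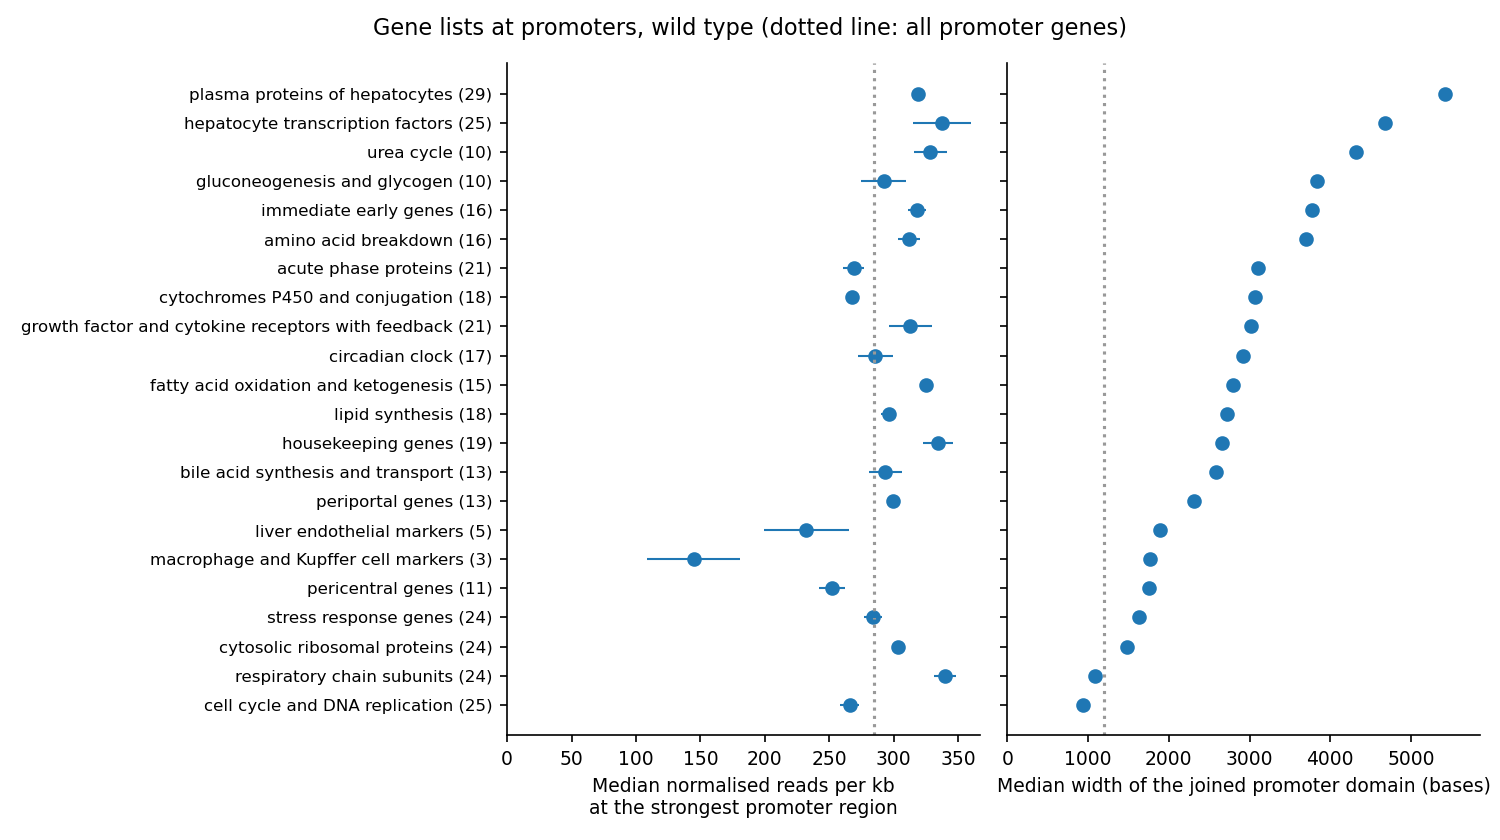
Left, median normalised reads per kb at the strongest promoter region of each gene list, with the SD of the 3 library medians. Right, median width in bases of the promoter domain after regions within 1 kb were joined. Numbers of promoter genes are in brackets and dotted lines are the medians of all promoter genes, 285 per kb and 1202 bases. Plasma proteins and hepatocyte transcription factors lie far to the right for width, respiratory chain subunits lie right for level but not for width.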

How the data were processed

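H3K27ac chromatin immunoprecipitation was sequenced from fixed, sonicated liver with spike-in chromatin added, per the labels' protocols. The table the authors deposited holds a signal per region, normalised reads, for each library. All values (100%) equalled whole reads divided by 1 size factor per library within 0.01 reads. Coordinates are on mm10, and the submitters' processing notes list BWA 0.7.5, deepTools 3.5.0 and MACS with no role for any of them. The calling of regions and the origin of the size factors are not given in the sources used here. Of 36446 rows, 59 repeated ones were dropped by position. The table has 3 other per-sample columns, which were not used, nor were the 3 input libraries of the same genotype.

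Values were computed in Python 3.11.15 (numpy 2.4.6, pandas 2.3.3, scipy 1.17.1). Level per kb is the mean over 3 libraries divided by width, and differences use log2(reads per kb + 1). Class differences were tested by an exact sign-flip permutation over libraries, which cannot go under 0.25, and the code was tested on simulated data. No count model was fitted, since only 1 group enters. RefSeq promoters were matched by symbol for 7058 of 9663 promoter genes. Each ± is an SD over 3 libraries, and depth limits single weak regions.

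Members, lists and rules were chosen with earlier results of these data known. Named were the 12 regions strongest per kb, the 10 with most reads, the 5 widest, the 2 strongest per class, the 10 genes with most regions and with most summed signal, the 10 highest joined domains, and of each list up to 4 highest and 2 lowest promoters and members with no region. Predicted and RIKEN names were left out of the naming, and some genes that the rule names are not reported here. Names outside this rule, such as Hnf4a, Cebpa, Alb, Slc39a14 and the microRNA genes, were chosen after their values were seen. Alternatives were another pseudocount, filters on reads and width, other promoter and joining distances, other rankings and leaving out each library.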

Additional observations from a re-analysis of the deposited data

How the results depend on the processing

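Of 58 alternatives over 12 results, 43 stayed within set limits, 13 moved further and 2 turned the sign. Within limits, a difference kept its direction, a count moved by less than 1.5 times and another value by less than the spread between libraries. The promoter share of regions and the width ratio have no such spread. Their limits were a sampling error that takes regions as independent and a fixed small value. No paired analysis was possible because only 1 group of libraries enters. The first minus later intron difference (log2 -0.00026) turned to 0.032 per region instead of per kb, and ran from -0.0038 to 0.0031 when 1 library was left out. The same ranges were 0.24 to 0.25 for promoters minus others and 0.057 to 0.067 for distal minus later intron, which per region were 0.73 instead of 0.25 and 0.15 instead of 0.062. With promoters taken within 3 kb, they made up 54.6% of regions and 64.9% of signal, and their width ratio to the rest went from 1.36 to 1.27. With regions of at least 20 normalised reads the share of regions was 44.5% and the width ratio 1.34. With regions joined within 1 kb, an alternative chosen after seeing the data, these were 51.3% and 1.41, and 5 of the 10 genes with most regions stayed. Ranked per kb, the top 10% of regions held 22.2% of signal instead of 32.8%. With promoters kept, 638 domains passed the tangent instead of 317, joined within 5 kb 394 did, and 305 to 320 did without 1 library. By the mean over all regions of a gene, 6 lists stood above all genes instead of 15, by summed reads 20, and without 1 library 15 to 16. Of the 12 strongest regions 7 stayed at 500 bases or more and 9 to 11 without 1 library. By promoters alone, 2 of the 10 genes with the highest sum stayed. Without 1 library the promoter share of signal was 56.5% to 56.8% and that of the top 10% of regions 32.8% to 32.9%. The SD of a list's library medians measures the spread between libraries and not that between the genes of a list. Acute phase promoters, for example, ran from 107 to 568 per kb around a median of 269 ± 8.29. Differences between lists were not tested, and weak regions vary most with depth.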
